A study of Mus musculus with 8 samples.

Results

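The response of thioglycollate-elicited peritoneal macrophages from wild-type mice to IFN-gamma is described here across protein-coding genes. It was read from 2 of the 8 libraries of the series, 1 library of untreated cells and 1 of cells given IFN-gamma at 10 ng/mL for 12 hours. Genes entered when they reached at least 5 FPKM (fragments counted per kilobase of transcript, scaled to the total of the library) in either library. This left 7777 of the 15870 genes listed in either table, and 7619 of the 7777 are protein-coding.

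Both libraries came from C57BL/6 mice of wild-type genotype (WT), injected in the peritoneal cavity with 1 ml of 4% thioglycollate, which draws monocytes into the cavity, where they become macrophages. The cells were collected 3 to 4 days later. A second pair of libraries, treated in the same way, came from Slc6a8-/y mice on the C57BL/6 background (KO), which lack the X-linked creatine transporter. The other 4 libraries of the series are from macrophages grown from bone marrow and were not used here. The labels do not say how many mice gave the cells of a library or whether the libraries of a genotype share a mouse.

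IFN-gamma is the cytokine by which T cells and NK cells activate macrophages. It binds the receptor chains Ifngr1 and Ifngr2, and the kinases Jak1 and Jak2 then switch on transcription factors that bind gamma-activated sequences (GAS) near their target genes. Irf1, made early in the response, and its relatives bind the interferon-stimulated response element (ISRE) of a second wave of genes, which act in antigen presentation, killing of microbes and nitric oxide production.

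Each gene is described by its level in each library and by the log2 ratio of treated over untreated FPKM, with 1 FPKM added to both, so that 1 stands for 2-fold. With 1 library a side there is no error between cultures and no test, and "higher" and "lower" below mean at least 2-fold apart in these libraries. Ratios of genes near 0 are held down by the added 1 FPKM. The KO pair is given beside the WT pair as a description and is not a replicate of it.

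The core motifs of the 2 elements were looked for on both strands of RefSeq promoter windows (GRCm38.p6) that run from 250 bases before to 50 bases after each annotated start. GAS was searched as TTCNNNGAA and ISRE as GAAA, any 2 bases and GAAA again, and 21 promoters held a GAS and an ISRE match that overlap. The windows below are examples from genes whose levels are given in the next paragraphs, and they are not all the matches in such genes. Matches not shown include those of Socs1, Socs3, Irf8 and Sod2 among the higher genes. Among the lower genes they include those of Sgk1, Emp1, Ncoa4 and Tlr8. The mix of higher and lower genes in these examples is no measure of how common matches are. The first 5 hold a GAS match, the next 3 an ISRE match, the 2 of Tgtp2 one of each, and the last 2 belong to genes that were lower after treatment. Each line reads 5′ to 3′ on the strand of the gene, with 10 flanking bases on either side in lower case and the motif match in capitals.
Irf1: acagcctgatTTCCCCGAAatgatgaggc
Icam1: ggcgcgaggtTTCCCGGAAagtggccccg
Fcgr1: aaggatgtatTTCCCAGAAaagggaacag
Il12rb2: gttcccttttTTCTCAGAAccgcactaag
Samhd1: acaccaccctTTCGGAGAAacacaagggc
Gbp2: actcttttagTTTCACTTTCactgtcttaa
Calhm6: tgaaaaaaaaGAAAGTGAAAcccggaaggg
Fcgr4: ggtgtttctgGAAAAGGAAActggtgagat
Tgtp2 GAS: agctagccatTTCCAGGAAtcgaaaccga
Tgtp2 ISRE: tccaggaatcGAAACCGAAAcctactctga
Il7r: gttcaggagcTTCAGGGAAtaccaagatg
Clec4d: gctttctcaaTTTCCTTTTCctctttgctc

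The windows lie at chr11:53769914-53769942 (Irf1, plus strand), chr9:21015888-21015916 (Icam1, plus), chr3:96294060-96294088 (Fcgr1, minus), chr6:67376293-67376321 (Il12rb2, minus) and chr2:157135313-157135341 (Samhd1, minus). Those with an ISRE match lie at chr3:142620594-142620623 (Gbp2, plus), chr10:34128017-34128046 (Calhm6, minus) and chr1:171018843-171018872 (Fcgr4, plus). The Tgtp2 windows overlap, at chr11:49064275-49064303 and chr11:49064263-49064292 on the minus strand. Those of the lower genes lie at chr15:9530000-9530028 (Il7r, minus) and chr6:123262097-123262126 (Clec4d, plus). Counted from the annotated start as 0, the match begins at -90 in Irf1, -42 in Icam1, -59 in Gbp2 and -64 in Calhm6. In Gbp2 and Clec4d the ISRE match is on the strand opposite to the gene.

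Of the 516 promoter windows of the higher protein-coding genes 11.8% held a GAS match and 14.0% an ISRE match. Over all 21263 protein-coding promoters of the table the shares were 7.69% and 3.35%. The 409 windows of the lower genes stood at 5.38% and 2.2%, and the 7065 windows of genes within 2-fold at 6.34% and 2.56%. Counted by gene, 111 of the 404 higher genes with a window, or 27.5%, held at least 1 match, against 26 of 296 lower genes, or 8.78%. The share by gene was 10.4% for genes within 2-fold and 12.2% over all protein-coding genes with a window. Most higher genes held neither core in this window, and a match is a description of letters, not a bound site. Of the 15 genes with the highest log2 ratio, 10 had a window, and 6 of those held a match.

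**Figure D1:**
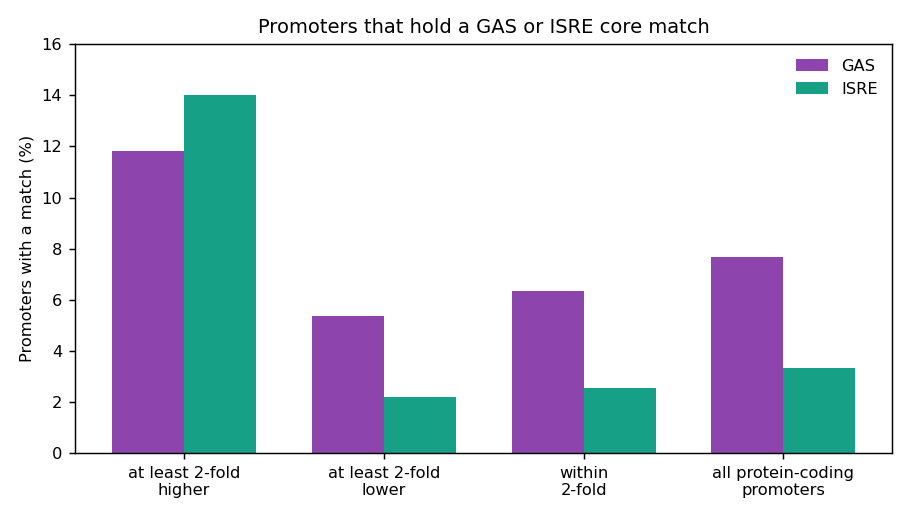
Share of promoter windows, in percent on the vertical axis, that hold a GAS core (purple) or an ISRE core (green), for protein-coding genes at least 2-fold higher, at least 2-fold lower or within 2-fold after IFN-gamma and for all protein-coding promoters. The higher genes stand at 11.8% and 14.0%, and the other 3 classes between 2.2% and 7.69%.

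Of the 7619 protein-coding genes 518, or 6.80%, were higher after IFN-gamma and 380, or 4.99%, were lower, and the median log2 ratio was -0.03. These shares are the background for every count below. Over all 7777 genes 536 were higher (6.89%) and 395 lower (5.08%). The higher and lower sides differed in shape. At least 4-fold differences were seen for 215 higher and 78 lower genes, and at least 10-fold differences for 86 and 9. Of the higher genes 62 were below 1 FPKM in untreated cells, while 14 of the lower genes were below 1 FPKM in treated cells. The higher genes held 2.98% of all counts in untreated and 13.66% in treated cells, and the lower genes 10.23% and 3.29%.

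In the KO pair 468 of the 518 genes were also higher, which is 90.3% of the WT list and 76.6% of the 611 genes higher in the KO pair (8.02% of the same 7619 genes). Of the 380 lower genes 342 were also lower there, or 90% of the WT list and 61.4% of the 557 genes lower in the KO pair (7.31%). None of the WT-called protein-coding genes was 2-fold apart in the opposite direction. Of 316 named genes called in the WT pair 23 were not 2-fold apart in the same direction in the KO pair, and for 32 the log2 ratios of the pairs were more than 1 apart. The genes nearest the 2-fold limit were Crybg1 (7.44 and 15.88 FPKM) and Atf1 (39.07 and 19.03 FPKM, -0.94 with TMM scaling) inside it, and Trim12c (5.07 and 11.13 FPKM) and 2310022A10Rik (55.94 and 27.53 FPKM) outside it. At the level limit, Gbp2b stayed out at 4.99 FPKM in treated cells and Cgas entered at 5.0 FPKM.

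**Figure D2:**
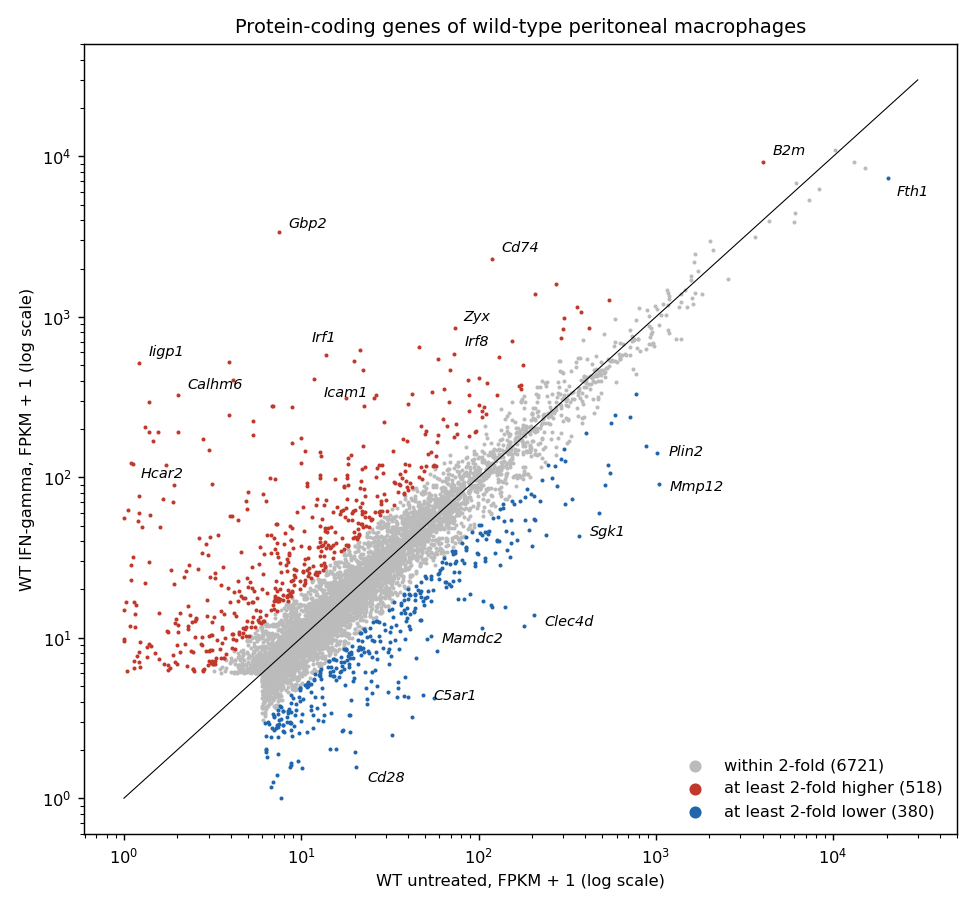
Each point is 1 of the 7619 protein-coding genes, with FPKM + 1 in untreated WT cells on the horizontal and in IFN-gamma-treated WT cells on the vertical axis, both on log scales, red at least 2-fold higher and blue at least 2-fold lower. The red points reach down to 0 FPKM in untreated cells, whereas the blue points lie closer to the line of equal levels; Gbp2 went from 6.53 to 3400.1 FPKM and Fth1 from 20392.7 to 7371.57 FPKM.

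The total expected count was 10812678 in the untreated and 11065427 in the treated WT library, and a gene near 5 FPKM had a median of 156 and 170 counts. The 10 most abundant genes held 17.05% and 13.68% of the counts. All 12 macrophage markers listed were at 5 FPKM or more in at least 1 of the WT libraries, and they summed to 10586.8 and 7851.67 FPKM. Of these 8 were within 2-fold, such as Adgre1 (F4/80) at 46.1 and 48.9 FPKM and the M-CSF receptor gene Csf1r at 110.41 and 118.3 FPKM. Fcgr1 and Mertk were higher, Mrc1 was lower, and Cd14, the co-receptor for lipopolysaccharide, was lower at 104.98 and 15.88 FPKM (log2 ratio -2.65). Slc6a8 itself was at 0.73 and 0.18 FPKM in the KO pair. In bulk RNA, fewer cells of a type and less RNA per cell cannot be told apart.

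The receptor chains of IFN-gamma and the kinase gene Jak1 were at like levels in both libraries, while Jak2 and several interferon regulatory factors were higher in treated cells. Ifngr1 stood at 35.7 FPKM untreated and 35.02 FPKM treated, Ifngr2 at 128.79 and 106.55 FPKM, and Jak1 at 51.15 and 60.27 FPKM. Jak2 went from 8.86 to 19.03 FPKM, a log2 ratio of 1.02 against 1.46 in the KO pair. Of 16 interferon regulatory factors, STATs and their binding partners 7 were higher and 1 was lower. Irf1 went from 12.73 to 580.16 FPKM (log2 ratio 5.40), and Irf8, which drives macrophage and dendritic cell genes, went from 71.38 to 589.71 FPKM (3.03). Irf7, the factor that amplifies type I interferon, went from 4.3 to 26.79 FPKM in the WT pair, a log2 ratio of 2.39 against 4.97 in the KO pair. The 1 lower member was Irf2bpl, at 20.34 and 9.64 FPKM (log2 ratio -0.94 with TMM scaling, within 2-fold).

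In the list of JAK, SOCS, phosphatase and other feedback genes 8 of 35 were higher, 4 lower and 23 within 2-fold. Socs1 and Socs3, which block JAK kinases, went from 2.15 to 90.12 FPKM and from 2.99 to 56.61 FPKM. The phosphatase genes Ptpn6 (SHP-1), at 85.64 and 401.99 FPKM, and Ptpn2, at 9.54 and 21.99 FPKM, were both higher. The lower ones were Dusp1, a phosphatase of MAP kinases (17.51 and 2.32 FPKM, log2 ratio -2.48), its relative Dusp4 (6.27 and 1.86 FPKM, with a log2 ratio of -1.35 in the WT and -0.62 in the KO pair), Socs6 (29.71 and 7.11 FPKM) and the adaptor gene Sh2b2 (18.93 and 4.65 FPKM).

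Among NF-kB and AP-1 family genes 10 of 27 were higher and 3 lower. Batf2, a basic leucine zipper factor of interferon-activated macrophages, went from 2.02 to 147.98 FPKM (log2 ratio 5.62). The inhibitors of NF-kB were prominent: Nfkbie went from 2.04 to 41.31 FPKM and Nfkbia from 17.18 to 97.9 FPKM, and the co-regulator Bcl3 from 8.44 to 60.17 FPKM. The AP-1 genes Fos (7.46 and 2.4 FPKM) and Atf3 (306.42 and 125.06 FPKM) were lower. The list thus held members on both sides, with a median log2 ratio of 0.56.

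The hypoxia-inducible factors stood on opposite sides. Hif1a, which controls glycolytic genes, went from 26.51 to 118.73 FPKM (log2 ratio 2.12), and Epas1, which encodes HIF-2alpha, from 57.04 to 7.27 FPKM (-2.81). In the KO pair the ratios were 2.40 and -3.30. Counting intervals of 95% for the log2 count ratio were 2.06 to 2.23 for Hif1a and -3.12 to -2.83 for Epas1, and they cover counting error only. Within the same family of 27 basic helix-loop-helix genes Max, the partner of Myc, was higher (74.85 and 185.63 FPKM). The Myc antagonists Mxi1 (14.7 and 5.47 FPKM) and Mxd4 (14.37 and 6.37 FPKM) and the repressor Bhlhe41 (75.38 and 16.53 FPKM) were lower. In all, 2 of the 27 were higher and 5 lower.

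Nuclear receptors were few among the called genes, with 1 of 13 higher and 1 lower. Vdr, the vitamin D receptor, went from 0.38 to 8.13 FPKM, and Pparg, the lipid-activated receptor, from 64.56 to 19.7 FPKM (log2 ratio -1.66). Of 18 ETS and C/EBP factors Etv6 alone was 2-fold apart, at 6.74 and 20.89 FPKM. The macrophage lineage factor Spi1 (PU.1) stood at 278.97 and 334.73 FPKM. None of 14 KLF, EGR and SP factors was 2-fold apart, from Klf4 at a log2 ratio of -0.68 to Klf2 at 0.80. Foxo3, a forkhead factor of the starvation response, was lower at 24.03 and 8.63 FPKM, and the LIM-domain gene Lmo4 higher at 28.02 and 105.86 FPKM.

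**Figure D3:**
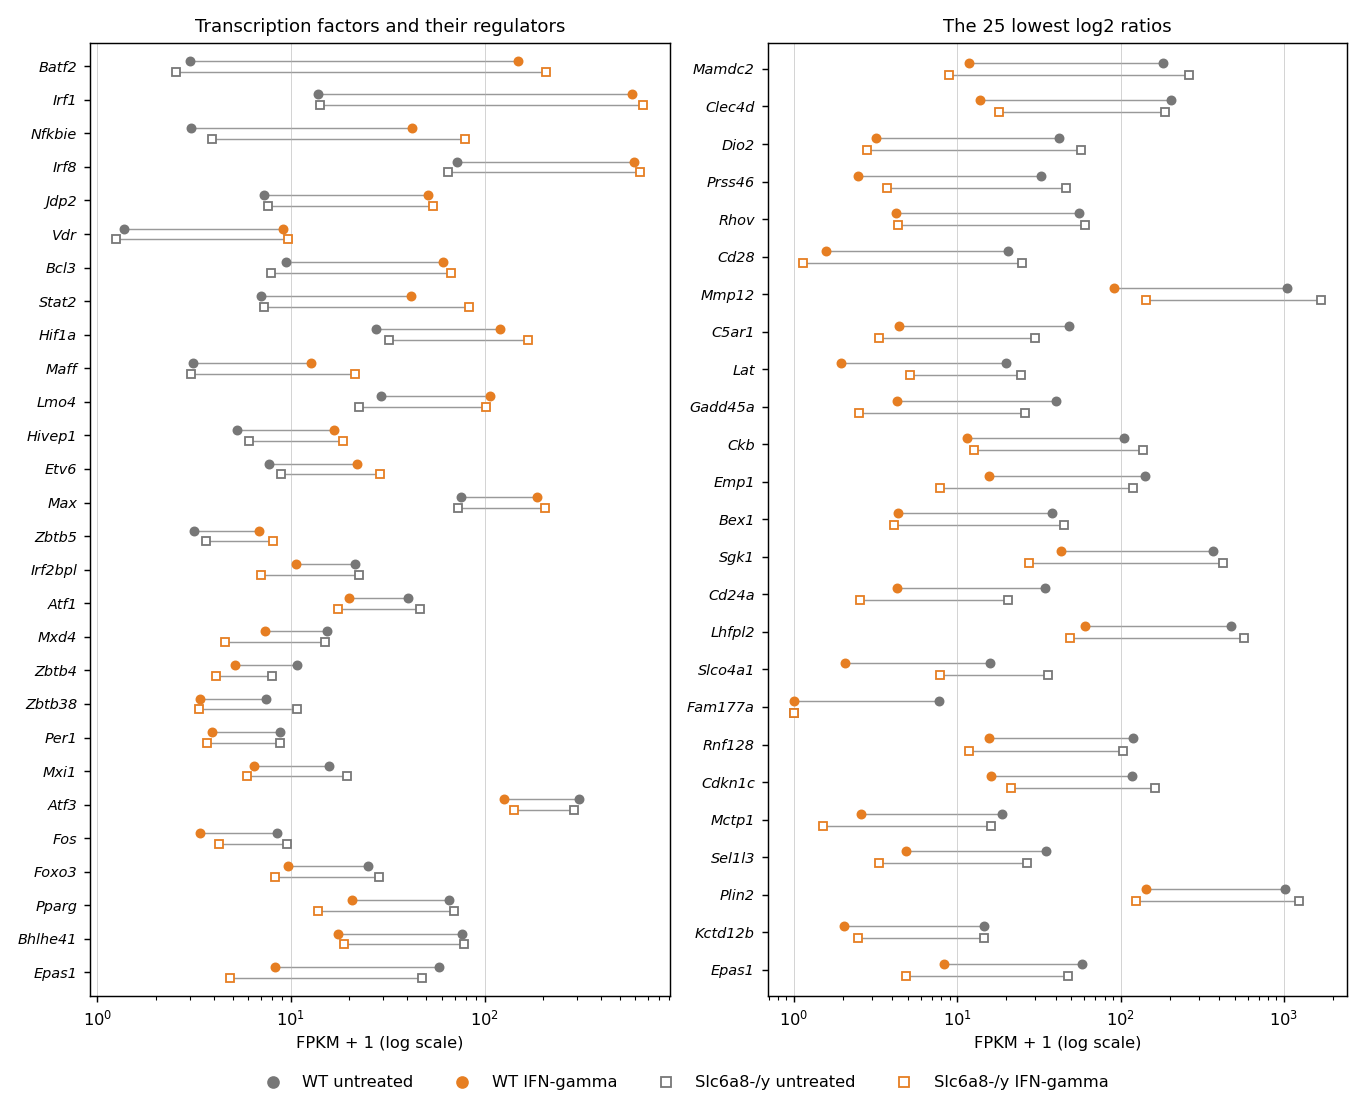
Levels as FPKM + 1 on a log scale, with grey untreated and orange IFN-gamma, filled circles the WT pair and open squares the KO pair. The left panel shows the named transcription factors and their regulators and the right panel the 25 protein-coding genes with the lowest log2 ratio. Genes are ordered by the WT log2 ratio, with Batf2 first and Epas1 last in the left panel. In the right panel Fam177a is the one gene at 0 FPKM in both KO libraries, and its reads may be split with the copy Fam177a2.

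Of 231 receptors and surface proteins 62, or 26.8%, were higher and 34, or 14.7%, were lower. Of 38 cytokine and growth factor receptors 10 were higher and 1 was lower. Il12rb1, the shared chain of the receptors for IL-12 and IL-23, had 2 counts in untreated and 1968 in treated cells, at 0.06 and 61.64 FPKM. The count ratio was 962, with a 95% counting interval of 266 to 7950. Its partner Il12rb2 went from 1.37 to 12.92 FPKM, and Il10ra, the ligand-binding chain for IL-10, from 14.49 to 96.34 FPKM. The VEGF receptor gene Flt1 went from 0.23 to 5.55 FPKM. Il7r, the IL-7 receptor chain, was the 1 lower member, at 305.04 and 67.03 FPKM in the WT pair and 343.18 and 73.92 FPKM in the KO pair.

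Receptors of the TNF family and co-stimulatory molecules followed. Cd40, through which T cells signal to macrophages, went from 0.41 to 57.19 FPKM (log2 ratio 5.37 in the WT and 6.76 in the KO pair). The death receptor gene Fas went from 1.94 to 16.23 FPKM and the receptor gene Tnfrsf14 from 3.4 to 21.47 FPKM, while Tnfrsf26 (22.32 and 3.83 FPKM) and the TWEAK receptor gene Tnfrsf12a (39.31 and 10.92 FPKM) were lower. In the list of co-stimulatory, checkpoint and SLAM molecules 8 of 17 were higher, among them Cd86 (1.74 and 32.59 FPKM) and Pdcd1lg2, which encodes PD-L2 (3 counts and 409 counts). Lower were Cd84 (220.41 and 70.18 FPKM), Cd200 (98.43 and 32.38 FPKM) and Vsir, which encodes the checkpoint protein VISTA (138.52 and 52.36 FPKM).

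Among 28 other G protein-coupled receptors 5 were higher and 6 lower. Hcar2, the receptor for niacin and beta-hydroxybutyrate, lies on chromosome 5 at 123863570 to 123865516 (GRCm38.p6). It had 2 counts in untreated and 2610 in treated cells, at 0.1 and 121.38 FPKM, a count ratio of 1280 with a counting interval of 353 to 10500. The KO pair stood at 0.47 and 123.44 FPKM. The acid- and lipid-sensing Gpr132 went from 3.59 to 33.21 FPKM and P2ry14, which senses UDP-glucose, from 6.32 to 37.81 FPKM. The purinergic receptors P2ry1 (6.39 and 1.39 FPKM) and P2ry2 (15.54 and 5.15 FPKM) were lower, as was the prokineticin receptor gene Prokr1 at 9.08 and 0.55 FPKM. Purinergic receptors thus stood on both sides.

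Of 8 receptors for chemoattractants 3 were lower. C5ar1, the receptor for complement fragment C5a, went from 47.34 to 3.41 FPKM (log2 ratio -3.45) and C3ar1, that for C3a, from 153.86 to 43.79 FPKM (-1.79, against -3.48 in the KO pair). Cxcr4, the receptor for Cxcl12, went from 150.44 to 37.79 FPKM. Cmklr1, the chemerin receptor gene, was higher at 12.65 and 45.42 FPKM.

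Pattern recognition genes held 14 of 28 higher and 5 lower members. Among Toll-like receptors, Tlr12 had 1 count in untreated and 554 in treated cells, at 0.03 and 15.69 FPKM, and Tlr9, which senses CpG DNA, went from 2.04 to 22.84 FPKM. Tlr2 (7.14 and 44.06 FPKM) and Tlr1 (6.31 and 18.45 FPKM), which pair to sense lipoproteins, were both higher. The RNA sensors Tlr7 (43.59 and 20.16 FPKM), Tlr8 (17.52 and 7.03 FPKM) and Tlr13 (81.92 and 28.35 FPKM) were all lower. For Tlr7 the KO log2 ratio was -0.47, against -1.08 in the WT pair. For Tlr8 and Tlr13 the KO ratios were the lower ones, at -2.49 against -1.21 and -3.32 against -1.5. Tlr4 stood at 14.46 and 14.13 FPKM.

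C-type lectins were split evenly, with 4 of 13 higher and 4 lower. Clec9a, which binds exposed actin of dead cells and is best known from type 1 dendritic cells, had 4 counts in untreated and 1064 in treated cells, at 0.13 and 30.71 FPKM. Of 11 dendritic cell markers 3 were at 5 FPKM or more, Clec9a, Batf3 (2.02 and 7.23 FPKM) and Fscn1 (21.5 and 25.4 FPKM), and the list summed to 24.51 and 64.47 FPKM. Xcr1 (0.17 and 0.36 FPKM), Zbtb46 (0.04 and 0.45 FPKM) and Itgae (0.02 and 0.02 FPKM) were near 0 in both libraries. Clec4d, an activating lectin, went from 203.56 to 12.86 FPKM (log2 ratio -3.88), while Clec4e (Mincle), its neighbour and partner, was higher at 6.52 and 15.85 FPKM (1.16, against 3.32 in the KO pair). The mannose receptor gene Mrc1 was lower at 24.84 and 8.59 FPKM.

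Receptors of phagocytosis also stood on both sides, with 4 of 27 higher and 5 lower. Axl and Mertk, kinases that bind apoptotic cells through bridging proteins, went from 11.77 to 102.25 FPKM and from 21.98 to 55.84 FPKM, and the Axl log2 ratio was 3.02 against 4.18 in the KO pair. Gas6, a ligand of both, was lower at 23.64 and 4.34 FPKM, and Pros1, a ligand of Mertk, was higher at 17.42 and 88.26 FPKM. Cd36, a receptor for oxidised lipids, went from 554.26 to 217.85 FPKM, and Cd300lb and Cd300ld from 192.31 to 45.77 FPKM and from 108.27 to 29.12 FPKM. Of 14 Fc and paired receptors 5 were higher and none was lower. Fcgr1, the high-affinity receptor for IgG, went from 3.95 to 62.34 FPKM and Fcgr4 from 40.98 to 330.13 FPKM.

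Among 42 integrins and adhesion molecules 6 were higher and 5 lower. Icam1, the ligand of leukocyte integrins, went from 10.82 to 410.75 FPKM (log2 ratio 5.12), and the integrin chains Itgal, which binds it, from 11.32 to 72.08 FPKM and Itga4 from 6.2 to 50.52 FPKM. Itgb3, the beta chain of the vitronectin receptor, was lower at 6.26 and 0.4 FPKM, and so were the tetraspanin gene Cd9 (711.39 and 237.88 FPKM) and the plexin gene Plxna1 (203.62 and 53.68 FPKM).

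Secreted proteins held 36 of 116 higher and 16 lower members. Complement had the highest share of higher genes among these lists, 69.2%, with 9 of 13 higher, none lower and a median log2 ratio of 1.95. The 3 chains of C1q were among the most abundant, with C1qa at 68.26 and 465.95 FPKM, C1qb at 273.31 and 1593.78 FPKM and C1qc at 206.62 and 1390.91 FPKM. Factor B (Cfb) went from 1.07 to 13.31 FPKM, a log2 ratio of 2.79 against 4.73 in the KO pair. Of 12 coagulation and fibrinolysis genes 6 were higher, such as the urokinase gene Plau (17.97 and 137.63 FPKM) and its receptor Plaur (104.1 and 259.63 FPKM). The 3 lower ones included thrombomodulin, Thbd, at 13.48 and 4.85 FPKM (-1.31, against -2.38 in the KO pair).

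Among cytokines, Il18bp, the soluble inhibitor of IL-18, went from 0.72 to 118.5 FPKM (log2 ratio 6.12), and Il27 from 1 count to 118 counts. Igf1, a growth factor, was lower at 34.52 and 7.48 FPKM, and so were Pdgfa (50.34 and 17.0 FPKM) and Tnfsf12 (289.91 and 128.46 FPKM). Of 14 chemokines 6 were higher and 1 was lower. The lower one, Ccl9, stood at 17.84 and 2.31 FPKM in the WT pair, a log2 ratio of -2.51 against -0.40 in the KO pair. Of 11 metalloproteinases and inhibitors 3 were lower, Mmp12, Adam8 (206.5 and 53.16 FPKM) and Mmp19 (73.0 and 32.53 FPKM), and Mmp14 was just past 2-fold higher (19.59 and 40.31 FPKM). The cysteine cathepsin genes Ctsk (276.23 and 87.21 FPKM) and Ctsl (587.0 and 244.16 FPKM) were lower and Ctsc, which activates serine proteases, higher (21.53 and 278.33 FPKM).

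**Figure D4:**
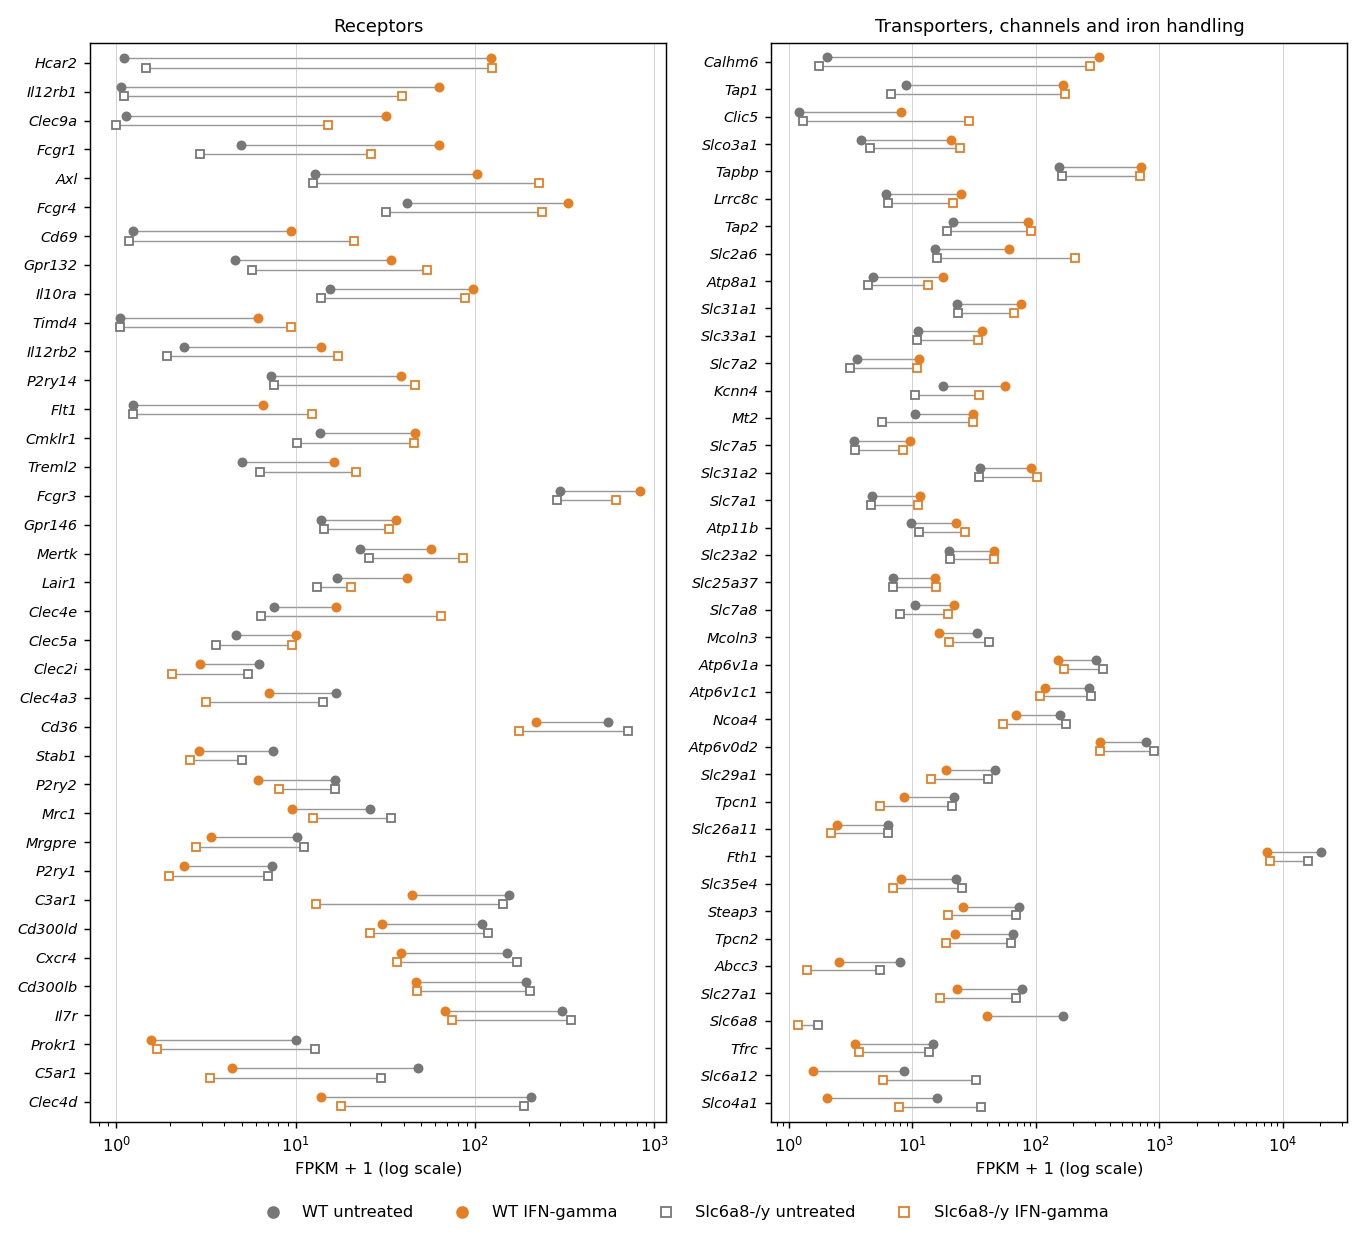
Levels of the named receptors (left) and of the named transporters, channels and iron-handling genes (right) as FPKM + 1 on a log scale, with grey untreated and orange IFN-gamma, filled circles the WT pair and open squares the KO pair. Genes are ordered by the WT log2 ratio; Hcar2 and Calhm6 lead, and Clec4d and Slco4a1 are last.

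Transporters and channels stood closer to the background, with 24 of 246, or 9.76%, higher and 21, or 8.54%, lower. Over all 132 solute carrier genes 11 were higher and 10 lower, and the median log2 ratio was -0.06. Of 25 amino acid and osmolyte transporters 4 were higher, and all 4 carry amino acids. The cationic amino acid carriers Slc7a2 and Slc7a1, which bring in arginine, went from 2.56 to 10.35 FPKM and from 3.72 to 10.44 FPKM. Slc7a5 and Slc7a8, which carry large neutral amino acids, went from 2.35 to 8.64 FPKM and from 9.52 to 20.9 FPKM. With 5 FPKM added in place of 1, Slc7a1, Slc7a5 and Slc7a8 were within 2-fold, at log2 ratios of 0.82, 0.89 and 0.83, and Slc7a2 remained past it. The 2 lower members carry creatine and betaine. Slc6a12, the betaine carrier, went from 7.63 to 0.56 FPKM in the WT pair and from 31.64 to 4.75 FPKM in the KO pair, so that the ratios were -2.47 and -2.51 at different levels. Slc6a8, the creatine carrier, stood at 163.54 and 39.52 FPKM.

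Among 11 sugar and monocarboxylate transporters Slc2a6, a lysosomal hexose carrier, was the one gene 2-fold apart. It stood at 14.13 and 59.36 FPKM in the WT pair and 14.95 and 208.15 FPKM in the KO pair. Slc2a1, the main glucose carrier of macrophages, stood at 35.16 and 34.05 FPKM. Of 32 mitochondrial carriers 1 was higher, Slc25a37, which imports iron, at 6.04 and 14.13 FPKM.

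In the list of 31 metal ion transport and iron-handling genes 3 were higher, 5 lower and 23 within 2-fold. Both copper transporters were higher, Slc31a1 at 21.95 and 75.46 FPKM and Slc31a2 at 34.41 and 90.05 FPKM, as was the metallothionein gene Mt2 at 9.45 and 29.93 FPKM. Lower were Tfrc, the transferrin receptor (13.78 and 2.42 FPKM), Hfe, which binds that receptor (9.71 and 4.06 FPKM), Steap3, an endosomal iron reductase (71.86 and 24.55 FPKM), and Ncoa4, which delivers ferritin to lysosomes (156.75 and 67.6 FPKM). The ferritin heavy chain gene Fth1 had the largest loss of any gene, from 20392.7 to 7371.57 FPKM (log2 ratio -1.47). The light chain gene Ftl1 stood at 15111.93 and 8498.62 FPKM, within 2-fold. Slc11a1, the phagosomal metal pump, stood at 230.6 and 231.61 FPKM.

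Among 36 carriers of nucleosides, organic anions, vitamins and drugs 3 were higher and 6 lower. The organic anion carriers Slco3a1 and Slco4a1 stood on opposite sides, at 2.84 and 19.57 FPKM and at 14.75 and 1.04 FPKM. The vitamin C carrier Slc23a2 was higher (18.9 and 44.63 FPKM), and the nucleoside carrier Slc29a1 (45.86 and 17.88 FPKM) and the fatty acid carrier Slc27a1 (76.45 and 22.03 FPKM) were lower. Of 40 ion channels 7 were higher and 3 lower. Calhm6, a member of the CALHM channel family on chromosome 10 at 34126067 to 34127972, went from 1.03 to 325.92 FPKM and from 0.76 to 271.0 FPKM in the KO pair. The potassium channel gene Kcnn4 was higher (16.75 and 55.42 FPKM). The 3 lower channels, Tpcn2 (64.82 and 21.33 FPKM), Tpcn1 (20.74 and 7.54 FPKM) and Mcoln3 (32.23 and 15.59 FPKM), are all cation channels of endosomes and lysosomes; Mcoln3 was at a log2 ratio of -0.94 with TMM scaling. Of 35 P-type and vacuolar ATPases the 3 lower members were subunits of the proton pump, Atp6v0d2 at 770.13 and 327.79 FPKM, Atp6v1c1 at 268.74 and 117.35 FPKM and Atp6v1a at 304.25 and 148.81 FPKM (-0.96 with TMM scaling).

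Metabolic enzymes were called near the background rate, with 44 of 462, or 9.52%, higher and 24, or 5.19%, lower. Of 23 glycolytic genes 3 were higher and 3 lower. Those higher act at early steps of the pathway: the hexokinase genes Hk2 (11.38 and 35.64 FPKM) and Hk3 (290.28 and 733.79 FPKM) and the phosphofructokinase gene Pfkp (25.91 and 114.02 FPKM). Lower were the enolase gene Eno2 (30.16 and 7.53 FPKM), Ldhb (11.8 and 5.19 FPKM, log2 ratio -1.05, and -0.99 with TMM scaling) and Ugp2, which makes UDP-glucose (80.1 and 29.64 FPKM). Of 86 oxidative phosphorylation genes Cox6a2 alone was 2-fold apart, at 2.69 and 6.51 FPKM (log2 ratio 1.03, against 0.41 in the KO pair), and 0.93 from the expected counts scaled to the library total. The others lay from -0.39 (Uqcr11) upward, with a median of 0.15 for the list.

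In the list of tricarboxylic acid cycle and itaconate genes Acod1, which makes itaconate, went from 0.46 to 168.57 FPKM (log2 ratio 6.86). Idh1, which is also counted among the NADPH sources, was lower at 110.19 and 44.34 FPKM. Pdp1, a phosphatase that activates pyruvate dehydrogenase, stood at 14.11 and 6.4 FPKM (log2 ratio -1.03, and -0.97 with TMM scaling). The other 26 of the 29 genes were within 2-fold.

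The lipid lists differed in the side of their called genes. Of 26 genes of fatty acid uptake, synthesis and lipid droplets 5 were lower and none was higher, with a median log2 ratio of -0.43. The droplet coat gene Plin2 went from 1020.19 to 141.3 FPKM, the fatty acid chaperone Fabp4 from 550.54 to 105.97 FPKM, and Hilpda, an inhibitor of droplet lipolysis, from 18.69 to 4.4 FPKM. Of 24 cholesterol synthesis genes 1 was higher, Pmvk at 6.07 and 17.13 FPKM, and the list median was -0.27. Among 18 eicosanoid genes and phospholipases 5 were higher and none was lower. The cyclooxygenase gene Ptgs2 went from 0.39 to 28.48 FPKM (log2 ratio 4.41), thromboxane synthase, Tbxas1, from 21.06 to 112.22 FPKM, and Pla2g7, which degrades platelet-activating factor, from 99.75 to 415.81 FPKM. Pld4 was higher in the WT pair (27.25 and 70.52 FPKM) with a KO log2 ratio of 0.04. The ceramide synthase gene Cers6 went from 12.75 to 71.01 FPKM, the 1 called gene of 24 in sphingolipid metabolism.

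Genes of NAD and tryptophan use were mostly higher, 5 of 7 with none lower and a median log2 ratio of 2.61. Nampt, the rate-limiting enzyme of NAD salvage, went from 39.04 to 284.61 FPKM. The NAD-consuming surface enzymes Bst1 and Cd38 went from 6.09 to 96.01 FPKM and from 0.78 to 9.83 FPKM. Wars, the tryptophanyl-tRNA synthetase gene, went from 25.3 to 324.18 FPKM. Enzymes that make and break NAD were thus both higher.

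Of 33 tRNA synthetase and ATF4 target genes 9 were higher and none was lower. Asns, which makes asparagine, went from 4.81 to 27.87 FPKM. The serine synthesis genes Phgdh and Psat1 went from 11.84 to 38.36 FPKM and from 13.07 to 47.54 FPKM, and the one-carbon gene Mthfd2 from 13.23 to 37.09 FPKM. The synthetase gene Yars was higher too, at 11.92 and 33.97 FPKM.

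Arginine and creatine genes were 4 higher and 2 lower of 21. Ass1, which remakes arginine from citrulline, went from 2.51 to 13.65 FPKM (2.06, against 3.16 in the KO pair). Gatm, whose product starts the making of creatine, stood at 6.97 and 37.37 FPKM (log2 ratio 2.27), with 10.19 and 26.2 FPKM in the KO pair (1.28). The creatine carrier and the creatine kinase Ckb (log2 ratio -3.18) were the 2 lower members, so the synthesis gene stood on the other side from the uptake and kinase genes.

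In nucleotide breakdown 6 of 16 genes were higher and 3 lower, or 1 lower with TMM scaling. Samhd1, which hydrolyses deoxynucleotides, went from 45.18 to 651.58 FPKM (log2 ratio 3.82). Upp1, uridine phosphorylase, had 2 and 149 counts, and Pnp, which splits purine nucleosides, stood at 21.52 and 83.33 FPKM. Xdh, which makes uric acid, was lower at 94.19 and 27.12 FPKM. Of 26 glutathione and NRF2 genes Prdx5 was higher (176.94 and 503.49 FPKM, 1.5 against 2.68 in the KO pair), and Gstm1 (535.42 and 118.08 FPKM) and Srxn1 (39.05 and 16.49 FPKM, -1.20 against -0.62 in the KO pair) were lower. Mitochondrial superoxide dismutase, Sod2, was higher at 17.14 and 102.19 FPKM and catalase, Cat, lower at 60.85 and 28.8 FPKM (log2 ratio -1.05, and -0.99 with TMM scaling).

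**Figure D5:**
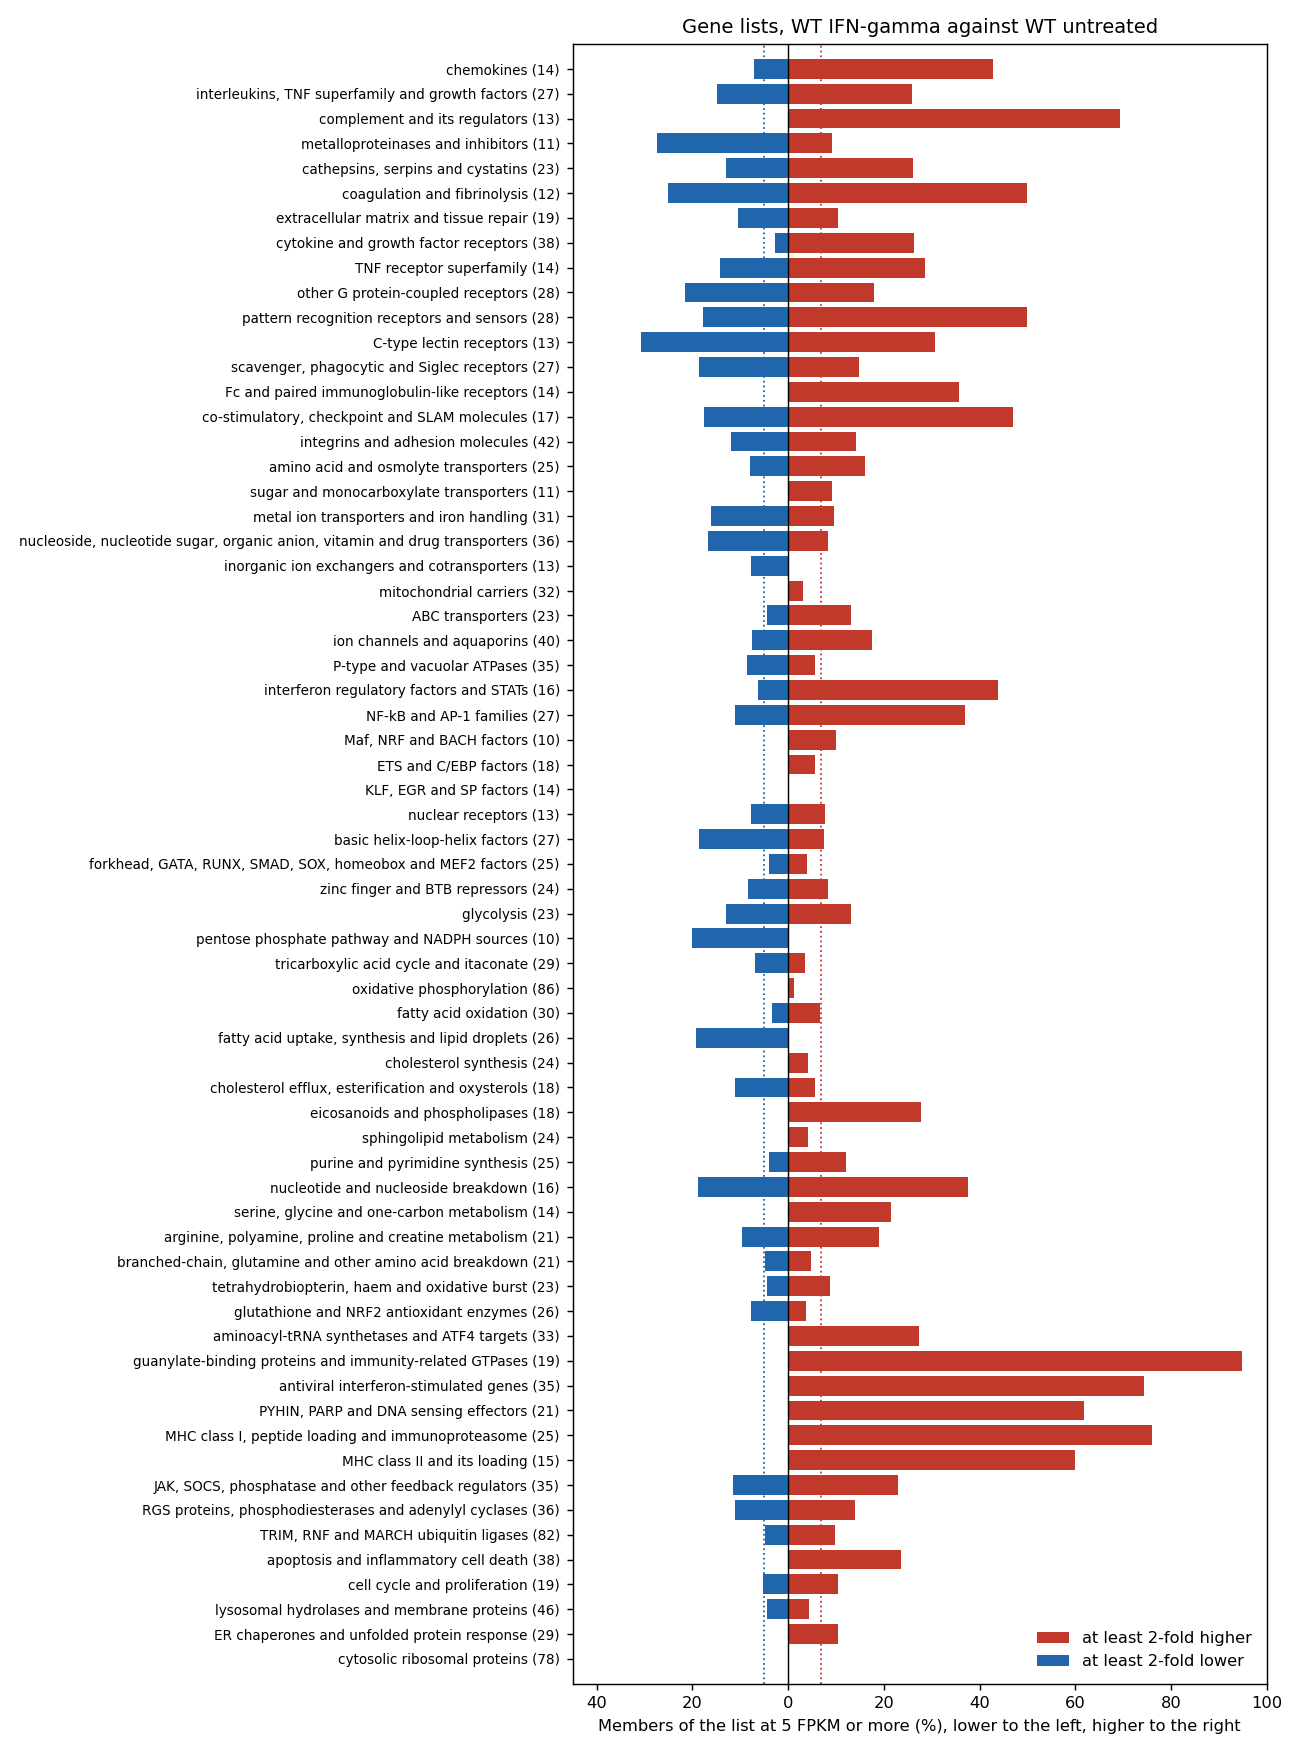
Percentage of the members at 5 FPKM or more of each list with at least 10 such members (number in parentheses) that were at least 2-fold higher (red, right) or lower (blue, left), with dotted lines at 6.80% and 4.99%, the shares over all protein-coding genes. Red bars are longest for guanylate-binding proteins and immunity-related GTPases (94.7%), the class I pathway (76.0%), antiviral genes (74.3%) and complement (69.2%). Cytosolic ribosomal proteins have no bar on either side.

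The interferon target families give the scale for these values. Of 19 guanylate-binding proteins and immunity-related GTPases 18 were higher, with a median log2 ratio of 5.33, as were 26 of 35 antiviral genes, 13 of 21 PYHIN and PARP genes, 19 of 25 genes of the class I pathway and 9 of 15 of the class II pathway. None in these 5 lists was lower. Tgtp1, at 0 counts in untreated and 1716 in treated cells, has the near-identical copy Tgtp2 (0.38 and 292.18 FPKM), and the split of their reads is uncertain. The same holds for Gbp4, Gbp6 and Gbp10 and for Serpina3f and Serpina3g.

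Ralgds, an exchange factor for the small GTPase Ral, went from 7.9 to 273.66 FPKM (log2 ratio 4.95 in the WT and 4.96 in the KO pair). Among cell death genes 9 of 38 were higher and none was lower. Mlkl and Ripk3, the pair that carries out necroptosis, went from 5.72 to 42.62 FPKM and from 6.44 to 16.75 FPKM, and Casp4, which senses lipopolysaccharide inside cells (Casp11), from 10.54 to 55.71 FPKM. The anti-apoptotic genes Birc3 (7.33 and 29.96 FPKM) and Cflar (13.73 and 48.32 FPKM) were higher as well.

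The cell cycle inhibitors Cdkn1a and Cdkn1c stood on opposite sides, at 25.61 and 75.5 FPKM and at 116.19 and 15.01 FPKM. Of 46 lysosomal genes 2 were higher and 2 lower. None of 78 cytosolic ribosomal protein genes was 2-fold apart, from -0.43 (Rpl37a) to 0.27 (Rpl36al). In the chaperone list of 29 genes the 3 higher members, Herpud1 (16.85 and 36.86 FPKM), Manf (26.69 and 57.37 FPKM) and Creld2 (20.2 and 43.24 FPKM), were within 2-fold in the KO pair, at log2 ratios of 0.24, 0.46 and 0.30.

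The genes with the lowest log2 ratios belong to no single one of these lists. Mamdc2, which encodes a secreted MAM-domain protein, lies on chromosome 19 at 23302609 to 23448497 and had the lowest value, -3.95, at 180.47 FPKM untreated and 10.76 FPKM treated. The KO pair stood at 262.15 and 7.84 FPKM. The serine protease gene Prss46 went from 31.51 to 1.46 FPKM. Dio2, the enzyme that activates thyroid hormone, went from 40.97 to 2.19 FPKM. Genes best known from other cells were among them. Cd28, the T cell co-stimulatory receptor, went from 19.45 to 0.56 FPKM (23.97 and 0.13 FPKM in the KO pair), and Lat, the T cell adaptor, from 18.99 to 0.93 FPKM (23.7 and 4.17 FPKM in the KO pair). None of 14 T and NK cell markers reached 5 FPKM in either library, but Trac and Trbc2 did not match the annotation and are not among them. Cd3e was at 0.06 and 0.06 FPKM, Prf1 was listed at 0 in both, and the markers summed to 2.54 and 4.81 FPKM.

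Several abundant transcripts were among the lowest. The tetraspan gene Lhfpl2 went from 474.34 to 59.16 FPKM, the kinase gene Sgk1, which regulates ion channels, from 365.63 to 42.38 FPKM, the epithelial membrane protein gene Emp1 from 140.03 to 14.63 FPKM and the ubiquitin ligase gene Rnf128 from 117.56 to 14.56 FPKM. The stress gene Gadd45a went from 39.04 to 3.29 FPKM. All of these were at least 2-fold lower in the KO pair as well. Fam177a, by contrast, had 282 counts in untreated WT cells and was listed at 0 in the other 3 libraries. Its copy Fam177a2 had 282 and 603 counts in the WT pair, so the split of their reads is uncertain, and the copies summed to 564 counts in untreated and 603 in treated cells.

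Markers of resident peritoneal macrophages and of other cell types were measured in the same libraries. The 10 resident markers summed to 24.09 and 32.12 FPKM. Of 5 at 5 FPKM or more, Timd4 (1 and 125 counts) and Selp (0.43 and 7.91 FPKM) were higher. Vsig4 was lower at 5.93 and 2.36 FPKM (log2 ratio -1.04, -0.99 with TMM scaling, and -0.22 in the KO pair). Eosinophil, basophil and mast cell markers summed to 8.3 and 9.92 FPKM, and the 1 at 5 FPKM or more was within 2-fold. Fibroblast and mesothelium markers summed to 157.28 and 128.81 FPKM, led by Col1a2 (40.9 and 32.62 FPKM) and Dcn (36.36 and 31.51 FPKM). Of 8 at 5 FPKM or more Lrrn4 alone was 2-fold apart, lower at 7.8 and 3.38 FPKM. Its log2 ratio was -1.01, or -0.95 with TMM scaling, and -1.98 in the KO pair. Col6a2, from the list of extracellular matrix and tissue repair, stood at 13.34 and 6.14 FPKM (log2 ratio -1.01, and -0.95 with TMM scaling). Erythroid and megakaryocyte markers summed to 63.36 and 103.84 FPKM. Of 5 at 5 FPKM or more 1 was higher, the alpha-globin gene Hba-a2, at 2.98 and 15.62 FPKM. Its log2 ratio was 2.06 in the WT and -0.68 in the KO pair. Alas2, the first enzyme of haem synthesis in red cell precursors, was at 0.14 and 0.51 FPKM. B cell markers summed to 42.61 and 35.24 FPKM, of which Cd22 gave 36.92 and 29.69 FPKM, and Pax5, the B cell lineage factor, was at 0.08 and 0.08 FPKM. The immunoglobulin genes Ighm and Igkc did not match the annotation and are not in the B cell sum. Neutrophil markers summed to 8.67 and 15.65 FPKM, with Ly6g and Mpo listed at 0 in both. S100a8, the one member that reached 5 FPKM, was higher at 3.07 and 9.5 FPKM (12 and 38 counts), with a log2 ratio of 1.37 against 0.19 in the KO pair. The part of these cells in any value above was not tested.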

How the data were processed

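RNA of 8 mouse macrophage samples was sequenced, and 2 peritoneal libraries carry the comparison. Per the file headers, the authors' tables hold an expected count and an FPKM value for each gene; the deposited expected counts were whole numbers, within 0.005, for 77.4% and 77.8% of genes. Bowtie2 2.2.5, RSEM and the mm10 build are named in the submitters' processing notes. Genes absent from a table were given 0 in that library. Symbols and positions came from GRCm38.p6 for 16615 of the 16657 identifiers in the 4 peritoneal tables. FPKM values were compared as log2 ratios after adding 1, over genes at 5 FPKM or more in either library, as differences without a test. FPKM is scaled to the total of each library and carries no further scaling between libraries. Counting intervals (Clopper-Pearson, 95%) cover counting error only, since each group holds 1 library. They treat fragments as independent, and copied fragments, which are not independent molecules, would make them too narrow. Alternatives used other pseudocounts, filters, limits and scalings (TMM from edgeR 4.0.16 in R 4.3.3, and median ratios). The calculation was tested on simulated data. The rest was computed in Python 3.11.15 (pandas 2.3.3, scipy 1.17.1, numpy 2.4.6), with figures from matplotlib 3.10.9.

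The members and the 79 lists (70 programmes and 9 sets of cell type markers) were chosen with earlier results of these data known. Named genes are the 15 highest and 25 lowest protein-coding genes, up to 4 highest and 4 lowest called members of each list, the 10 largest gains and losses in FPKM, and a panel of known macrophage genes. Some members are not reported here. Other members were named after their values were seen. Lists overlap: Cd36, Pparg, Idh1, Slc6a8, Samhd1, Wars, Nampt and Psat1, among others, are each counted in at least 2. Of the list symbols, 14 did not match the annotation, among them Ighm, Igkc, Trac and Trbc2 of the cell type markers.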

Additional observations from a re-analysis of the deposited data

Results flagged for a closer look

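The WT and KO pairs stood on opposite sides for Hba-a2, an alpha-globin gene. It was at 2.98 and 15.62 FPKM in the WT pair and had a log2 ratio of -0.68 in the KO pair; its copy Hba-a1 is near-identical, so the split of reads between them is uncertain. With 1 library a group the difference was not tested. No group holds enough samples to look for one that stands apart from its own group.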

How the results depend on the processing

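Over all 7777 genes 536 were higher and 395 lower, and the protein-coding genes alone gave 518 and 380. With a pseudocount of 5 FPKM, 247 were lower; with a minimum of 20 FPKM, 351 and 229; with a limit of 1.5-fold, 990 and 901; with a limit of 4-fold, 226 and 88. The pseudocount of 0.1 FPKM, a minimum of 1 FPKM or none, both scalings and the expected counts scaled to the library total gave 562 to 695 higher and 357 to 522 lower, within 1.5 times of the reported counts, as was the number higher with the pseudocount of 5 FPKM. TMM scaling moved the median log2 ratio from -0.028 to 0.033 and median-ratio scaling to 0.025, and the higher share of called genes from 57.6% to 62.0% and 61.6%; with the 4-fold limit that share was 72.0%. The median thus changed sign under both scalings, while no named gene past 2-fold changed direction with another pseudocount or scaling. Of 316 named genes past 2-fold, 60 were within 2-fold with the pseudocount of 5 FPKM and 14 under each scaling. On expected counts scaled to the library total 1 was, Cox6a2. With the pseudocount of 0.1 FPKM none could be, since a smaller pseudocount widens every ratio. Those within 2-fold with 5 FPKM added include Jak2, Irf2bpl, Atf1, Fos, Dusp4, Mxi1, Mxd4, Batf3, Clec4e, Tlr8, P2ry1, Thbd, Mmp14, Slc7a1, Slc7a5, Slc7a8, Slc25a37, Mcoln3, Cox6a2, Ldhb, Pdp1, Pmvk, Cat, Herpud1, Manf, Creld2, Col6a2 and S100a8. Of the 158 counts within lists, those that moved by over 1.5 times were 91 with the 4-fold limit, 61 with the 1.5-fold limit, 48 with the minimum of 20 FPKM, 36 with the pseudocount of 5 FPKM, 17 with the minimum of 1 FPKM and with none, 8 under each scaling, 5 with the pseudocount of 0.1 FPKM and 3 on expected counts scaled to the library total. The minimum of 1 FPKM and no minimum had to give the same counts. With 1 FPKM added, a gene below 1 FPKM in both libraries cannot reach 2-fold. No paired analysis was possible because each group holds 1 library. Leaving a library out was likewise not possible, and the KO pair, which differs in genotype, does not show the spread between cultures. A gene near 5 FPKM had 156 and 170 counts, and genes with few counts in 1 library have wide intervals.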

Other observations

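Of the called protein-coding genes 460 were in none of the lists, and those with large ratios, chosen after their values were seen, include several of the strongest. Fgl2, which encodes a secreted and membrane fibrinogen-like protein, went from 4.34 to 224.9 FPKM (log2 ratio 5.40 in the WT and 4.82 in the KO pair). The DNA exonuclease gene Trex1, which clears cytosolic DNA, went from 5.66 to 98.24 FPKM, and Dnase1l3, a secreted DNase, from 0.84 to 25.37 FPKM. Ly6e, a GPI-anchored antiviral surface protein gene, went from 57.8 to 544.35 FPKM. The actin-linked genes Zyx (zyxin, 72.33 and 850.56 FPKM), Cnn3 (calponin 3, 9.01 and 121.13 FPKM) and Cdc42ep2 (3.88 and 70.12 FPKM) were all higher. Cd83 stood at 17.41 and 130.38 FPKM and Notch1 at 2.55 and 20.24 FPKM.

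Among the lower genes outside the lists, Anxa1, which encodes the pro-resolving protein annexin A1, went from 878.66 to 156.63 FPKM, and Por, the electron donor of cytochrome P450 enzymes, from 238.29 to 42.95 FPKM. The retinal reductase gene Dhrs3 went from 333.73 to 71.75 FPKM in the WT pair, a log2 ratio of -2.20 against -3.43 in the KO pair. Flvcr1, a transporter of choline and haem, went from 50.36 to 8.85 FPKM, and Bnip3l, a receptor of mitophagy, from 122.71 to 32.65 FPKM. The muscle-type ubiquitin ligase gene Fbxo32 (43.17 and 6.5 FPKM), a target of FOXO factors, was lower, as was Foxo3. A link between these genes was not tested.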
